A study of Homo sapiens with 15 samples.

Results

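Genes of the unfolded protein response and the integrated stress response were followed in H1299 cells that overexpressed p53 or constructs derived from it. The list holds 39 genes chosen by symbol from a named list, of 61552 gene IDs counted, and falls into an ATF4 arm of 19 genes and an endoplasmic reticulum (ER) arm of 20 genes. H1299 is a human lung carcinoma line that has no functional p53 of its own. The groups of 2023 overexpressed wild-type p53 (WT) or received the control vector (Ctrl), and those of 2022 overexpressed p53, LLPSEp53_1 or LLPSEp53_2, with 3 libraries in each of the 5 groups. The last 2 constructs are known here only by these names, in a series whose title concerns the liquid-liquid phase separation of p53. The labels state no empty-vector group for 2022, no clone, and no time after the vector was introduced. They place p53 replicate 2 in a different collection batch from the other libraries of 2022, so it set no difference between groups and replicates 1 and 3 stood for p53.

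When unfolded proteins build up in the ER, the sensors IRE1 (encoded by ERN1), ATF6 and PERK (encoded by EIF2AK3) are activated. IRE1 splices the XBP1 mRNA, and XBP1 and cleaved ATF6 raise ER chaperones and the machinery that removes misfolded proteins. PERK belongs to the kinases that phosphorylate eIF2, which lowers general translation while that of ATF4 goes up. ATF4 then raises genes of amino acid supply as well as DDIT3 (CHOP) and PPP1R15A (GADD34), the latter of which directs the removal of the phosphate from eIF2. Much of the control of ATF4 and of the sensors acts on protein or on splicing and is not seen in counts of reads per gene.

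Short sequence elements were searched in the promoters of both arms, and stretches are shown for the genes on which the results turn. RefSeq promoters (build GRCh38.p14, 250 bases before to 50 after the start, both strands searched) were matched for 37 of the 39 genes, all 20 of the ER arm and 17 of the ATF4 arm; SHMT2 and PSPH were not matched. The ER stress element, CCAAT and CCACG separated by any 9 bases, was in 5 of 20 ER arm promoters, 0 of 17 ATF4 arm promoters and 0.0806% of 27305 promoters in all. Its second form, ATTGGNCCACG, was in 3 of 20, 0 of 17 and 0.0549% of all, and TGACGTGG was in 1 of 20, 0 of 17 and 0.795%. The C/EBP-ATF element TGATGNAA was in 3 of 17 ATF4 arm promoters (17.6%), 1 of 20 in the ER arm (5%) and 3.67% of all. The ER elements were in HSPA5, HSP90B1, CALR, CRELD2, XBP1, HERPUD1, HYOU1 and SDF2L1, and the C/EBP-ATF element was in ASNS, CHAC1, SLC3A2 and HERPUD1. A match describes letters in these windows and is not evidence of binding. The genes were listed for these pathways, so a share above that of all promoters is a description and no independent support. Only the first listed promoter of each gene was used, which for PHGDH, SLC3A2, TRIB3, PDIA6 and DNAJB11 lies well inside the annotated gene. For DDIT3, STC2, ATF4, ERN1, CHAC1, CRELD2, CEBPG and DNAJB9 the window also lies inside the gene, but nearer its first base. A missing element in these windows says nothing of the outermost start. The stretches below run 5′ to 3′ on the strand of the gene, with matched elements in capitals. They are the ER chaperone HSPA5 with its ER stress element (minus strand, chr9:125241344-125241593), HERPUD1 with one element of each arm (plus strand, chr16:56931892-56932047), 30 bases around the element of ASNS (minus strand, chr7:97872458-97872487), EDEM1, which was the 1 gene called with WT (plus strand, chr3:5187457-5187645), and PPP1R15A, which differed most from p53 in both constructs (plus strand, chr19:48872171-48872391). The stretches end before the first base of the gene in GENCODE, except that of ASNS.
HSPA5: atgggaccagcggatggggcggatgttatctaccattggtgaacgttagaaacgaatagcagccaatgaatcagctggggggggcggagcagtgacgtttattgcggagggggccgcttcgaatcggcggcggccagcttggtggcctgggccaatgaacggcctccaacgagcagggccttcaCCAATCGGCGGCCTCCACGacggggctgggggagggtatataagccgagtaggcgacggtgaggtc
HERPUD1: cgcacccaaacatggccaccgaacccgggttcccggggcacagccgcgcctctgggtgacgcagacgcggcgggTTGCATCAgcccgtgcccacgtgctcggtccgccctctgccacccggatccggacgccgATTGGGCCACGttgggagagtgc
ASNS: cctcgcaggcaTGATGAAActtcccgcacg
EDEM1: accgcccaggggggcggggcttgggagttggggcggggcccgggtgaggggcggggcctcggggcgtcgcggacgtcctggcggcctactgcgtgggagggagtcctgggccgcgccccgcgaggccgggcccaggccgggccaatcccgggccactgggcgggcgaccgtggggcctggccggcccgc
PPP1R15A: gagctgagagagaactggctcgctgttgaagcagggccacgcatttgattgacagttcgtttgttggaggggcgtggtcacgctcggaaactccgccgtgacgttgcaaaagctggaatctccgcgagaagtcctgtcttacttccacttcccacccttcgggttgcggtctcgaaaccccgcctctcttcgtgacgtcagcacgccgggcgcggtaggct
None of the 4 elements was found in the windows of EDEM1 and PPP1R15A, which says nothing of the factors that act there.

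Depth was 16208538 to 19228748 counts per library in 2023 and 13535397 to 16438272 in 2022, and all 39 genes passed the filter on low counts in both years. The lowest count of any of the 39 genes in any library was 49, for ASNS. Levels are given as CPM, counts scaled to library size. The carcinoma markers KRT8, KRT18 and VIM summed to 2545 to 4448 CPM, while markers of normal lung epithelium summed to 1.25 to 8.03 CPM, of blood and immune cells to 0.06 to 2.01, of endothelial cells to 0.94 to 3.13 and of fibroblasts to 1.80 to 5.05, with SFTPA1, PTPRC and HBB at 0 in every library. Reads of mitochondrial genes made up 0.68% of counts in Ctrl replicate 1 and 1.38% to 1.68% in the other 5 libraries of 2023. Nothing in the labels says that replicates came from separate cultures, and the p-values thus reflect variation among these libraries, possibly technical.

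Both arms were expressed in the cells with the control vector. Per kilobase of exon, the highest mean in Ctrl was that of ATF4, the central transcription factor of the integrated stress response, at 200.4 CPM per kilobase. SLC3A2, the heavy chain of several amino acid exchangers, followed at 174.2, the ER lectin chaperone CALR at 142.2, HSPA5 (BiP), the main HSP70-type chaperone of the ER, at 112.3, and PPP1R15A at 112.0. The sensors were far lower, with ATF6 at 6.78, ERN1 at 2.95 and EIF2AK3 at 2.19 CPM per kilobase. Last in the order was ASNS, asparagine synthetase, at 1.11 CPM per kilobase. Of its exon bases 44.6% are shared with another annotated transcript on the same strand (AC079781.5, 5 to 27 counts per library), so its level depends on how reads in that stretch were counted. The sources used here name neither the counting tool nor its strand setting, which also touches genes that overlap another on the opposite strand. These include DDIT3 (27.2% of its exon bases lie over MARS, which had 4211 to 8819 counts per library), MTHFD2 (27.2% over SLC4A5), ATF5 (21.2% over NUP62), PDIA6 (25.2% over ATP6V1C2) and DDIT4 (41.2% over DDIT4-AS1).

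**Figure D1:**
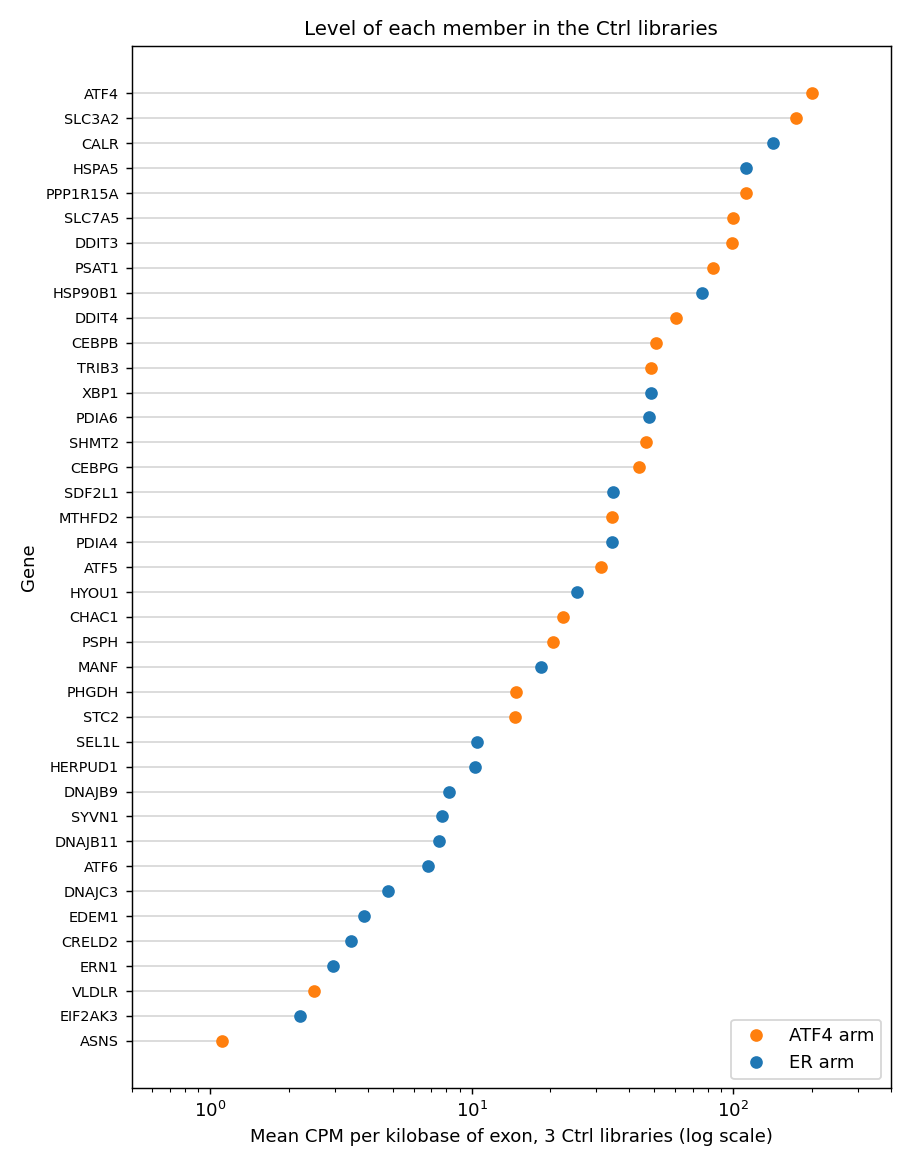
Mean level in the 3 Ctrl libraries in CPM per kilobase of exon (log axis) for each of the 39 genes, ordered by level and coloured by arm. ATF4 leads at 200.4 and ASNS is last at 1.11, with the sensors ATF6, ERN1 and EIF2AK3 at 6.78 or below.

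WT was compared with Ctrl to find genes that wild-type p53 regulates. In the ATF4 arm 0 of 19 genes were called by edgeR's quasi-likelihood test at an adjusted p of 0.05, and in the ER arm 1 of 20, EDEM1, rose. Over all 16156 genes tested 4.12% were called, and 3.24% were called higher. The median log2 difference was -0.02 over the ATF4 arm and -0.03 over the ER arm, beside -0.01 over all genes tested. At an unadjusted p under 0.05 there were 2 higher and 4 lower genes in the ATF4 arm and 1 higher and 3 lower in the ER arm, beside 18.2% of all genes. DESeq2 called 3 genes of the ATF4 arm, each lower with WT (DDIT3, SLC3A2 and PPP1R15A), and 1 gene of the ER arm, the same EDEM1. Over all genes DESeq2 called 3.92%, and 1.06% lower. The edgeR fit above took the samples as unpaired. With a term for replicate number it called DDIT3, PSAT1, MTHFD2, SLC3A2 and PPP1R15A of the ATF4 arm, beside 1645 of the 16156 genes. Whether replicate numbers pair the samples was not settled. In the bulk RNA measured here, less RNA per cell and fewer cells with the RNA cannot be told apart.

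EDEM1 lies at chr3:5187646-5219957 and encodes a lectin-like protein that hands misfolded glycoproteins over to ER-associated degradation. Its level was 25.2, 30.2 and 23.0 CPM in Ctrl replicates 1 to 3 and 37.1, 36.6 and 35.3 CPM in those of WT. Every WT library was above every Ctrl library, and the WT libraries lay closer together. The log2 difference was 0.48 ± 0.12 (SE), a fold of 1.39 with a 95% interval of 1.16 to 1.66 (edgeR, adjusted p = 0.029, n = 3 in each group). The call was lost without WT replicate 1 (edgeR, adjusted p = 0.142), WT replicate 2 (0.0782), WT replicate 3 (0.0881), Ctrl replicate 1 (0.0502) or Ctrl replicate 3 (0.171), with log2 differences of 0.40 to 0.49 in those fits. It held without Ctrl replicate 2 (log2 difference 0.59, adjusted p = 0.00485). The other genes of ER-associated degradation on the list, HERPUD1, SEL1L and SYVN1, had log2 differences of -0.16, 0.11 and -0.15, and their groups overlapped.

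In the ATF4 arm DDIT3 and SLC3A2 had the smallest p-values, followed by PSAT1 and PPP1R15A, and all of these but PSAT1 had lower values in WT. DDIT3, a transcription factor that promotes cell death under lasting ER stress, was at 129.3, 132.0 and 126.6 CPM in Ctrl and at 94.3, 109.3 and 100.7 CPM in WT. The groups did not overlap, with a log2 difference of -0.35 ± 0.10 (edgeR, adjusted p = 0.0618). SLC3A2 was at 930.9, 906.6 and 869.3 CPM in Ctrl and at 644.6, 741.9 and 671.9 CPM in WT. Here too every WT library lay below every Ctrl library, with a log2 difference of -0.40 ± 0.12 (edgeR, adjusted p = 0.0623). PPP1R15A was at 394.8, 339.6 and 304.6 CPM in Ctrl and at 276.7, 278.1 and 254.4 CPM in WT, again without overlap, with a log2 difference of -0.36 (edgeR, adjusted p = 0.0963). None of the 3 passed the threshold in the unpaired edgeR fit. Their adjusted p-values with DESeq2, and in the edgeR fit with a term for replicate number, were below it.

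PSAT1 and MTHFD2, enzymes of serine and folate metabolism, had values in the other direction. PSAT1, an aminotransferase of serine synthesis, was at 130.4, 206.7 and 213.8 CPM in Ctrl and at 212.3, 280.6 and 273.4 CPM in WT. Its lowest library was Ctrl replicate 1, and the groups overlapped only in that Ctrl replicate 3 stood just above WT replicate 1. Each WT library was above the Ctrl library of the same number. The log2 difference of 0.48 ± 0.15 did not pass (edgeR, adjusted p = 0.0936), but did without Ctrl replicate 2 (0.0397) and with the term for replicate number. PSAT1 was called in 3 of 12 alternatives, with a lowest adjusted p of 4.13e-05 (edgeR). MTHFD2, a mitochondrial enzyme of folate metabolism, had a log2 difference of 0.32 without overlap (edgeR, adjusted p = 0.134). It too was called with the term for replicate number. PHGDH, PSPH and SHMT2 of the same routes had log2 differences of 0.04, 0.11 and -0.08. ATF4 itself differed by -0.08 and TRIB3, an inhibitor within the same response, by 0.05.

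The abundant ER chaperones differed little between WT and Ctrl. HSPA5 was at 469.8, 426.3 and 420.3 CPM in Ctrl and at 429.1, 428.4 and 423.0 CPM in WT, with overlapping groups and a 95% interval of the fold of 0.829 to 1.14. HSP90B1 (GRP94), HYOU1 (an HSP70-related chaperone), the disulfide isomerases PDIA4 and PDIA6, and CALR had log2 differences of 0.04, -0.07, 0.04, -0.01 and -0.05. Lower values that did not pass were those of SDF2L1, a partner of ER chaperones, at -0.34 (edgeR, adjusted p = 0.184, and 0.0336 without Ctrl replicate 2), CRELD2, an ER protein raised by ER stress, at -0.34 (adjusted p = 0.191), and XBP1 at -0.26 (adjusted p = 0.268). EIF2AK3 differed by 0.29 without overlap (edgeR, adjusted p = 0.316). Groups did not overlap for 5 of 19 genes of the ATF4 arm, 1 higher and 4 lower, and for 3 of 20 of the ER arm, 2 higher and 1 lower, beside 22.4% of all genes tested. The 95% interval of the fold lay within 1.5-fold in either direction for 15 of 19 genes of the ATF4 arm and 16 of 20 of the ER arm.

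**Figure D2:**
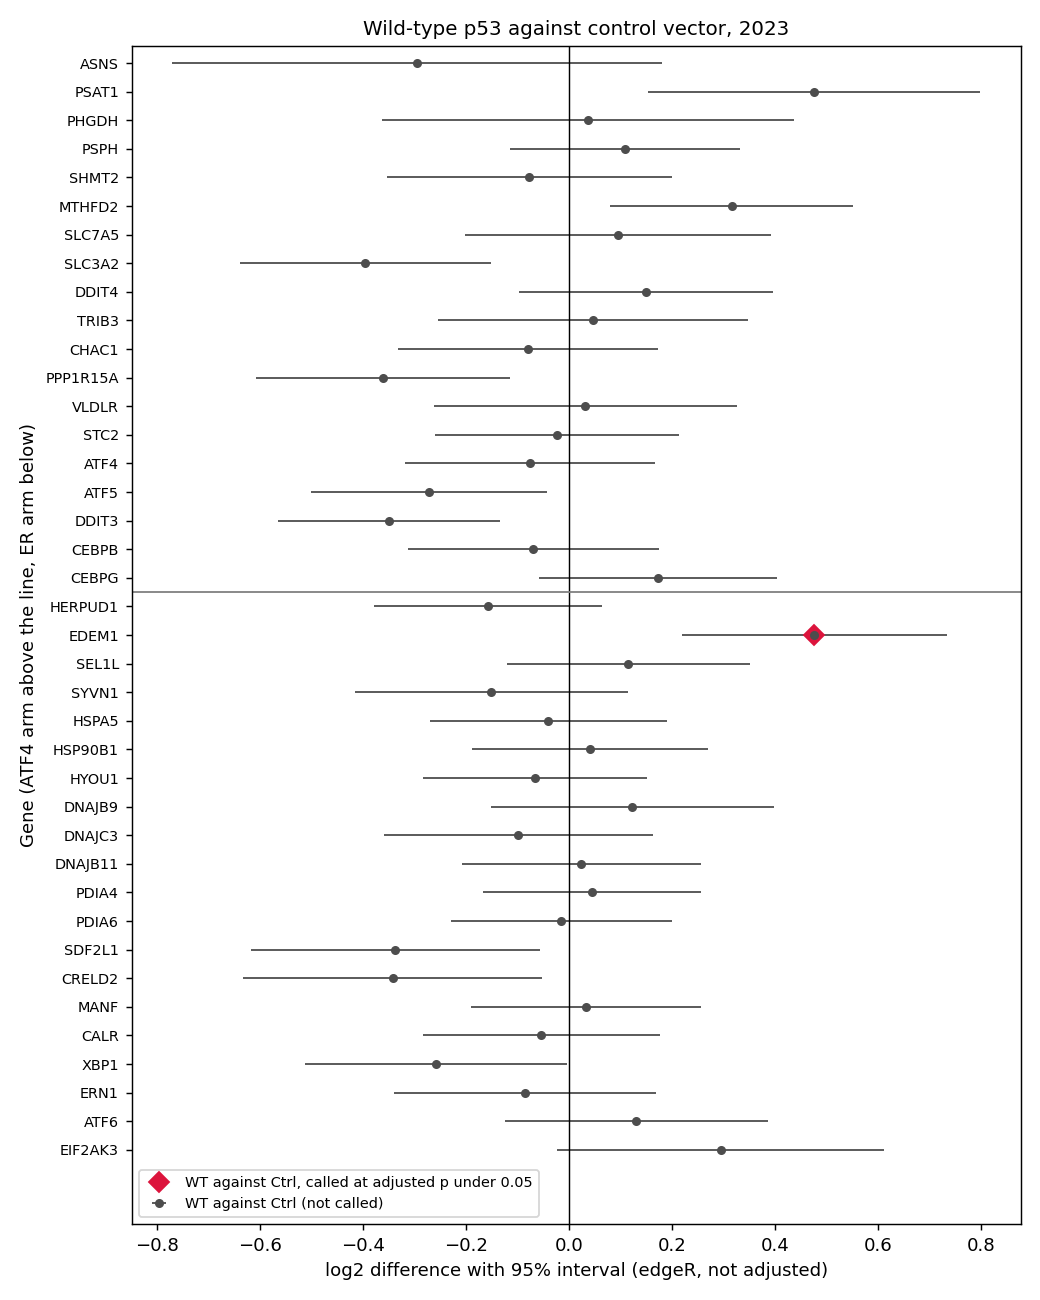
Log2 difference between WT and Ctrl with its unadjusted 95% interval from edgeR for each gene, the ATF4 arm above the line and the ER arm below (3 libraries in each group). Only EDEM1, at 0.48, carries the diamond of an adjusted p under 0.05.

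LLPSEp53_1 was compared with p53 to ask what this construct does relative to p53. No gene of either arm was called by edgeR, 0 of 19 in the ATF4 arm and 0 of 20 in the ER arm, beside 0.888% of the 17459 genes tested. At an unadjusted p under 0.05 the ATF4 arm had 1 higher and 1 lower gene and the ER arm 1 lower gene, beside 13.1% of all genes. DESeq2 called 1 gene, PPP1R15A, higher, beside 1.29% of all genes called by it and 0.229% called higher. The medians were 0.03 in the ATF4 arm and -0.04 in the ER arm, beside 0.00 over all genes.

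PPP1R15A (chr19:48872392-48876057) was at 37.2 and 57.8 CPM in p53 replicates 1 and 3 and at 69.8, 89.8 and 112.9 CPM in LLPSEp53_1 replicates 1 to 3. All LLPSEp53_1 libraries were above both p53 libraries. The log2 difference of 0.94 ± 0.25, a fold of 1.91 with an interval of 1.31 to 2.80, did not pass in edgeR (adjusted p = 0.14, n = 3 and 2), but did without LLPSEp53_1 replicate 1 (0.0292). STC2, a secreted glycoprotein, was at 46.6 and 53.8 CPM in p53 and at 35.8, 33.4 and 43.0 CPM in LLPSEp53_1. It was lower in each LLPSEp53_1 library than in either p53 library, with a log2 difference of -0.42 (edgeR, adjusted p = 0.273). VLDLR, a lipoprotein receptor, differed by -0.33 without overlap (edgeR, adjusted p = 0.441). The 5 transcription factors of the arm, ATF4, ATF5, DDIT3, CEBPB and CEBPG, all had values above 0, from 0.03 to 0.45, with overlapping groups and none past an unadjusted p of 0.05.

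In the ER arm the 4 genes of ER-associated degradation had log2 differences below 0. HERPUD1, an ER membrane protein of that pathway, was at 60.7 and 64.0 CPM in p53 and at 42.8, 44.96 and 54.7 CPM in LLPSEp53_1. The groups did not overlap, and the difference of -0.39 ± 0.16 did not pass (edgeR, adjusted p = 0.316). EDEM1 was at 42.0 and 36.4 CPM in p53 and at 35.3, 32.9 and 31.1 CPM in LLPSEp53_1, a log2 difference of -0.24 (edgeR, adjusted p = 0.488). DNAJC3, a co-chaperone of BiP, differed by -0.34 (adjusted p = 0.391), and MANF, an ER protein with trophic activity once secreted, by 0.38 (adjusted p = 0.407). Groups did not overlap for 4 of 19 genes of the ATF4 arm, 1 higher and 3 lower, and for 7 of 20 of the ER arm, 1 higher and 6 lower, beside 26.9% of all genes tested. The interval of the fold lay within 1.5-fold for 9 of 19 and 12 of 20 genes, so differences of that size could not be bounded for the rest at this spread.

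LLPSEp53_2 was compared with the same p53 libraries. Again edgeR called 0 of 19 genes of the ATF4 arm and 0 of 20 of the ER arm, beside 1.93% of all genes, and DESeq2 called 0 in both arms, beside 2.55%. At an unadjusted p under 0.05 there were 2 higher genes in the ATF4 arm and 1 lower gene in the ER arm, beside 12.8% of all genes. The medians were 0.03 and -0.03, beside 0.01 over all genes. Since both comparisons use p53 replicates 1 and 3, a shared direction is not independent evidence, and the values are given side by side.

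PPP1R15A was at 73.5, 95.02 and 58.6 CPM in LLPSEp53_2, and its lowest library stood just above p53 replicate 3 at 57.8 CPM. Its log2 difference from p53 was 0.67 ± 0.25 (edgeR, adjusted p = 0.252), beside 0.94 for LLPSEp53_1. Its adjusted p was 0.0482 without LLPSEp53_1 replicate 3, a library that enters this comparison through the shared spread, and 0.0291 with LLPSEp53_1 left out of the fit. CEBPB, a basic leucine zipper factor, was at 42.6 and 73.38 CPM in p53 and at 90.6, 100.1 and 73.38 CPM in LLPSEp53_2. LLPSEp53_2 replicate 3 and p53 replicate 3 had nearly the same level, and the log2 difference of 0.60 ± 0.27 did not pass (edgeR, adjusted p = 0.37, and 0.048 with LLPSEp53_1 left out of the fit), beside 0.45 for LLPSEp53_1. TRIB3 differed by -0.25 (edgeR, adjusted p = 0.591), beside -0.31.

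The co-chaperones of BiP had lower values in LLPSEp53_2 than in p53, none past the threshold. DNAJC3 was at 45.8 and 41.2 CPM in p53 and at 32.4, 33.6 and 36.3 CPM in LLPSEp53_2. These groups did not overlap, with a log2 difference of -0.35 ± 0.16 (edgeR, adjusted p = 0.375), beside -0.34 for LLPSEp53_1. DNAJB9, whose product ERdj4 binds misfolded ER proteins, differed by -0.33 (adjusted p = 0.439) and DNAJB11, a further co-chaperone, by -0.14. EIF2AK3 differed by -0.30 (edgeR, adjusted p = 0.55), beside -0.30 for LLPSEp53_1, whereas HSPA5 differed by -0.04 and -0.03. Groups did not overlap for 4 of 19 genes of the ATF4 arm, 2 higher and 2 lower, and for 7 of 20 of the ER arm, all 7 lower, beside 33.1% of all genes tested. The 2 higher were PPP1R15A and CEBPB, whose lowest LLPSEp53_2 library stood barely above p53 replicate 3. Intervals lay within 1.5-fold for 13 of 19 and 16 of 20 genes.

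**Figure D3:**
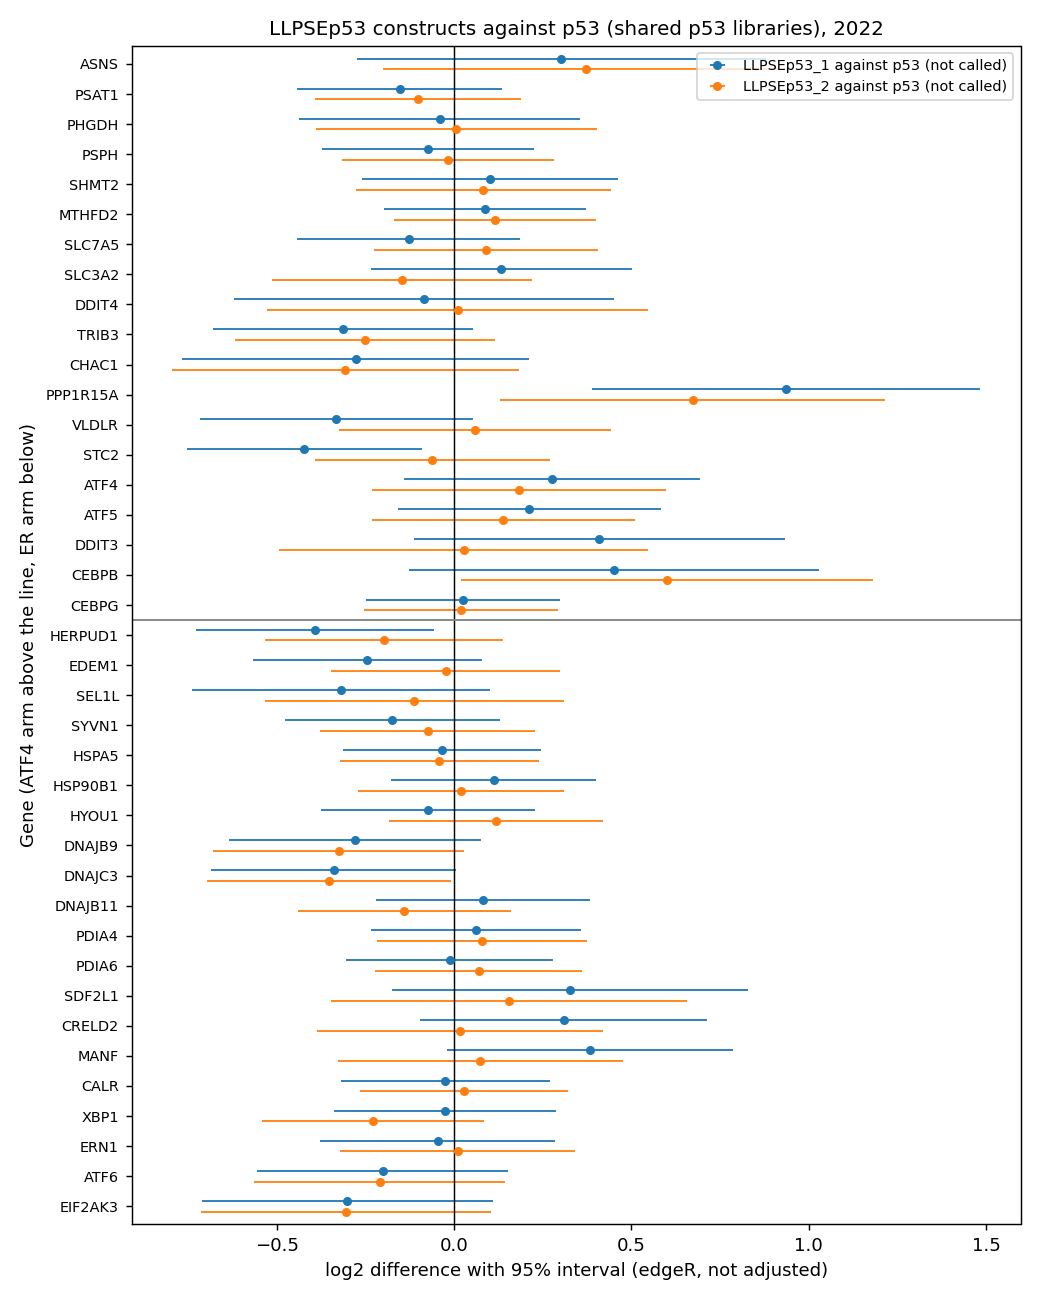
Log2 difference of LLPSEp53_1 (blue) and LLPSEp53_2 (orange) from p53 with unadjusted 95% intervals from edgeR for each gene (3 libraries against p53 replicates 1 and 3, which both comparisons share). PPP1R15A lies farthest to the right at 0.94 and 0.67, and no gene has an adjusted p under 0.05.

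The constructs were also compared directly, LLPSEp53_2 against LLPSEp53_1. Both edgeR and DESeq2 called 0 of 19 and 0 of 20 genes, beside 0.372% of all genes by edgeR and 0.729% by DESeq2. At an unadjusted p under 0.05 there were 2 higher genes in the ATF4 arm, STC2 and VLDLR, and 0 in the ER arm, beside 7.23% of all genes. STC2 was at 50.7, 48.2 and 45.5 CPM in LLPSEp53_2, above each LLPSEp53_1 library, with a log2 difference of 0.36 (edgeR, adjusted p = 0.559). VLDLR was at 23.7, 20.03 and 15.8 CPM in LLPSEp53_1 and at 26.4, 24.5 and 27.0 CPM in LLPSEp53_2, also without overlap, with a difference of 0.39 (edgeR, adjusted p = 0.629). SLC3A2 differed by -0.28 (edgeR, adjusted p = 0.755), MANF by -0.31 (0.749), DNAJB11 by -0.22 (0.76) and CRELD2 by -0.29 (0.763). The medians were 0.05 in the ATF4 arm and -0.01 in the ER arm, beside 0.00 over all genes. Groups did not overlap for 3 of 19 and 3 of 20 genes, beside 13% of all genes, and intervals lay within 1.5-fold for 13 of 19 and 16 of 20 genes.

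**Figure D4:**
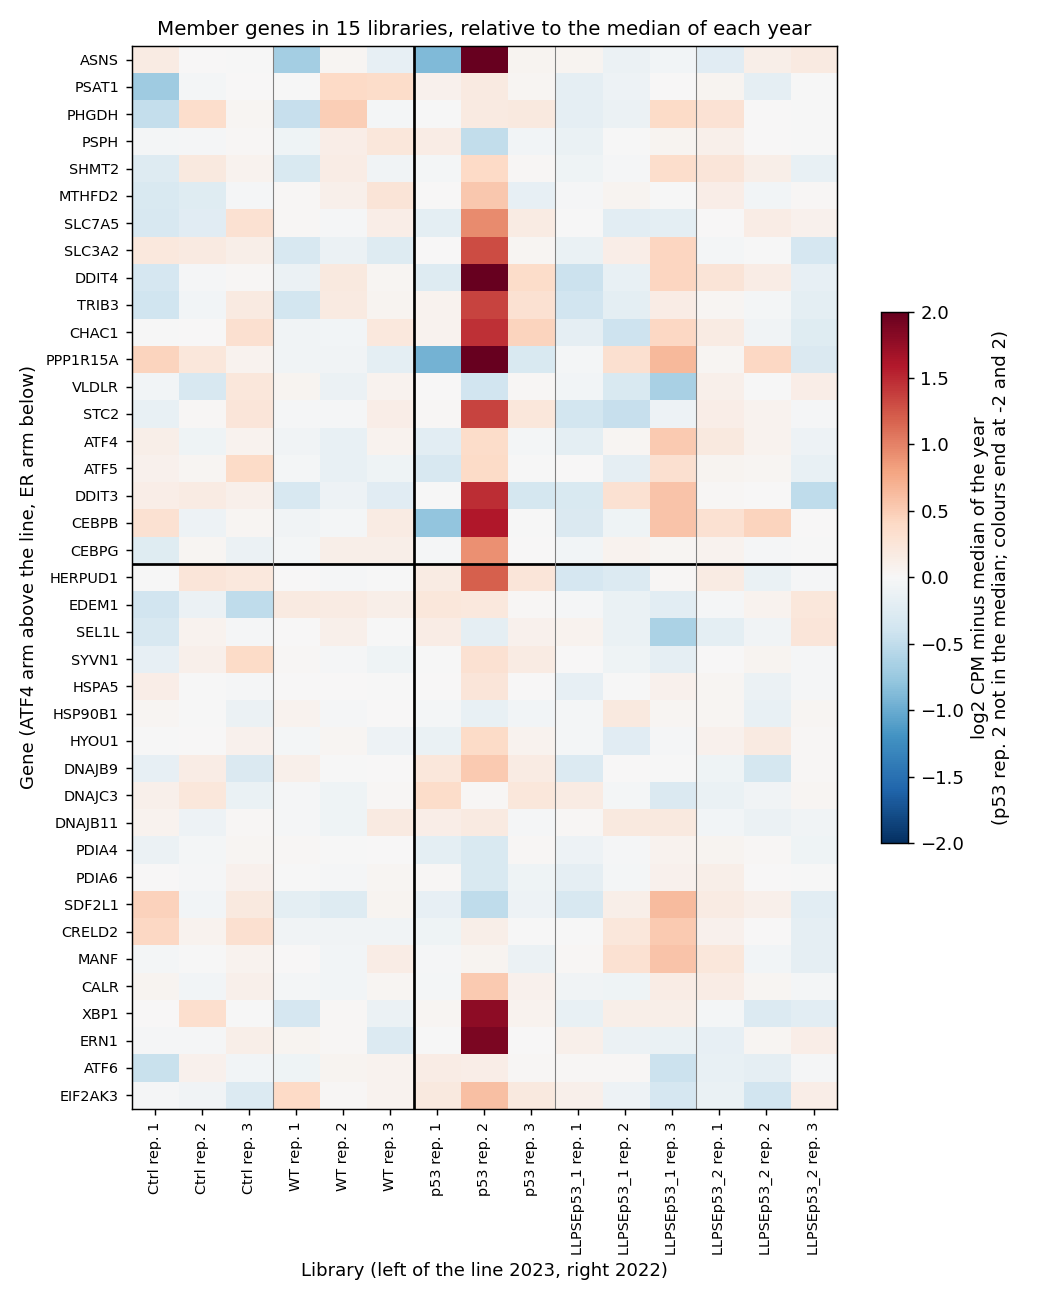
Log2 CPM of each gene in each of the 15 libraries minus the median of its year, with p53 replicate 2 left out of the median (red higher, blue lower, colours ending at -2 and 2). The column of p53 replicate 2 stands apart in the ATF4 arm and at XBP1, ERN1 and HERPUD1.

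PPP1R15A, ASNS and other genes of the ATF4 arm stood far from the rest in p53 replicate 2, the library of the other collection batch. It is 1 library, so no test was made, and its batch and any other property of this library cannot be told apart. In this library 9 of 19 genes of the ATF4 arm and 2 of 20 of the ER arm were at least 2-fold above the mean of p53 replicates 1 and 3, beside 10.9% of all genes. PPP1R15A was at 477 CPM beside a mean of 47.5 CPM, a ratio of 10.1. ASNS was at 25.6 beside 4.57 CPM and DDIT4 (REDD1), an inhibitor of mTORC1 signalling, at 172 beside 42.9 CPM. CEBPB was at 222.5 beside 58.0 CPM and DDIT3 at 125 beside 40.0 CPM. The other genes above 2-fold in the arm were SLC3A2, STC2, CHAC1 (a glutathione-degrading enzyme) and TRIB3, with ratios of 2.24 to 2.42. Those of serine synthesis did not share this: PSAT1, PHGDH and PSPH had ratios of 1.08, 1.06 and 0.689.

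In the ER arm of p53 replicate 2 the genes above 2-fold were ERN1 and XBP1. ERN1 was at 104 CPM beside 28.3 and XBP1 at 231 beside 70.0 CPM, followed by HERPUD1 with a ratio of 1.995. DNAJB9, EDEM1 and SEL1L had ratios of 1.26, 1.06 and 0.815. The chaperones HSPA5, HSP90B1, PDIA4 and PDIA6 had ratios of 1.18, 0.930, 0.857 and 0.829. The median ratio was 1.94 in the ATF4 arm and 1.10 in the ER arm, beside 1.02 over all genes. This library was the highest of the 9 of 2022 for 15 of 19 genes of the ATF4 arm and 9 of 20 of the ER arm. It was the lowest for 1 and 3 genes of these arms. The matching shares over all genes were not computed, so these counts have no background. When it was counted among the p53 libraries without a batch term, the log2 difference of PPP1R15A from p53 turned to -1.07 for LLPSEp53_1 and -1.33 for LLPSEp53_2, and that of CEBPB for LLPSEp53_2 to -0.36.

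**Figure D5:**
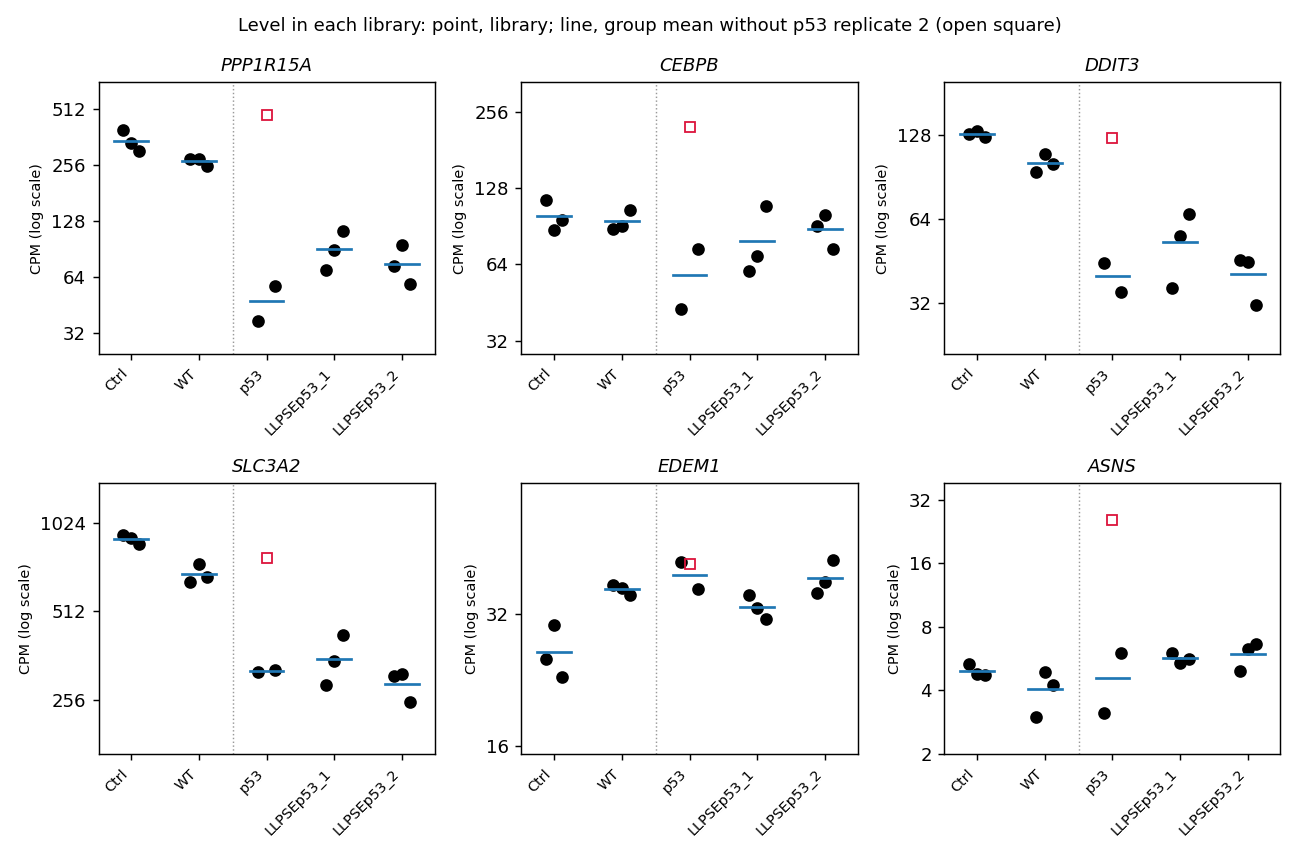
Level of 6 genes in CPM (log axes) in each library (points) with the group mean (line), Ctrl and WT of 2023 left of the dotted line and the groups of 2022 right of it; levels were scaled separately in each year. The open square is p53 replicate 2, outside the mean: it lies at 477 CPM for PPP1R15A and at 25.6 CPM for ASNS, far above p53 replicates 1 and 3, but among them for EDEM1.

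Libraries of 1 group also differed from each other, in both arms. The highest library over the lowest had a median ratio of 1.46 over the ATF4 arm and 1.20 over the ER arm in LLPSEp53_1, 1.23 and 1.16 in LLPSEp53_2, 1.28 and 1.18 in Ctrl, and 1.17 and 1.08 in WT. LLPSEp53_1 replicate 3 was the highest of its group for 14 of 19 genes of the ATF4 arm and replicate 1 the lowest for 13. LLPSEp53_2 replicate 1 was the highest of its group for 13 of 19 and replicate 3 the lowest for 13. Shares over all genes were not computed for these counts either, so they have no background. The share of counts from ribosomal protein genes was 4.11%, 4.96% and 5.92% in LLPSEp53_1 replicates 1 to 3 and 4.95%, 4.49% and 3.90% in those of LLPSEp53_2, so the same libraries were at the ends. This order did not hold in every group. Ctrl replicate 1 had the highest share of its group (5.21%) and the lowest summed level of the ATF4 arm (3773 CPM). Of p53 replicates 1 and 3, replicate 1 had the higher share (4.12% beside 3.88%) and the lower sum. In WT, replicate 1 was lowest in both, at 4.93% and 3506 CPM. The part of that share in the levels of the arm was not tested. Summed over the arm, the ATF4 genes came to 2281, 2462 and 2946 CPM in LLPSEp53_1, 2686, 2578 and 2363 CPM in LLPSEp53_2 and 2350 and 2569 CPM in p53 replicates 1 and 3, with all 3 groups overlapping. The sums of the ER arm were 2234 to 2428 CPM, 2267 to 2440 CPM and 2382 to 2400 CPM.

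Further genes of these pathways, outside the 39, were counted in 4 lists. In a wider ATF4 list of tRNA synthetases, amino acid transporters and other targets, 1 of 28 genes was called with WT, beside 3.24% of all genes called higher. This was ATF3, a stress-induced transcription factor that is also known as a p53 target, at 197, 168 and 154 CPM in Ctrl and at 261, 240 and 231 CPM in WT. It rose by 0.50 ± 0.12 on the log2 scale without overlap (edgeR, adjusted p = 0.0133), and the call was lost without WT replicate 1 (adjusted p = 0.118) or Ctrl replicate 3 (0.122). In p53 replicate 2 ATF3 was at 631 CPM, beside 48.9 and 62.7 CPM in the other p53 libraries. Between the constructs ATF3 was 1 of 27 genes called, at 69.8, 64.6 and 72.2 CPM in LLPSEp53_1 and at 38.7, 46.0 and 38.1 CPM in LLPSEp53_2. The groups did not overlap, and ATF3 was lower in LLPSEp53_2 by a log2 difference of -0.75 ± 0.14 (edgeR, adjusted p = 0.0416), where 0.349% of all genes were called lower. That call was lost without LLPSEp53_1 replicate 1 (adjusted p = 0.0562) or replicate 2 (0.153), or without LLPSEp53_2 replicate 1 (0.202), replicate 2 (0.0944) or replicate 3 (0.237), and with p53 left out of the fit (0.054). With no batch term its adjusted p was 1.

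SLC38A2, a sodium-coupled transporter of neutral amino acids, was the 1 gene of 27 called in each comparison with p53. It was at 2320 and 2227 CPM in p53 replicates 1 and 3, at 1503, 1102 and 1055 CPM in LLPSEp53_1 and at 1306, 1118 and 1539 CPM in LLPSEp53_2. Both constructs lay below p53 in every library and overlapped each other. The log2 differences were -0.90 ± 0.17 for LLPSEp53_1 (edgeR, adjusted p = 0.0322), where 0.836% of all genes were called lower, and -0.78 ± 0.17 for LLPSEp53_2 (adjusted p = 0.0362), where 1.83% were. The LLPSEp53_1 call was lost without p53 replicate 1 (adjusted p = 0.211), p53 replicate 3 (0.224), LLPSEp53_1 replicate 2 (0.202) or LLPSEp53_2 replicate 2 (0.061). The LLPSEp53_2 call was lost without p53 replicate 1 (0.23), p53 replicate 3 (0.169), LLPSEp53_1 replicate 2 (0.0614), LLPSEp53_2 replicate 1 (0.125) or LLPSEp53_2 replicate 2 (0.196). With p53 replicate 2 counted in p53 and no batch term, the adjusted p-values were 0.149 and 0.163, and with LLPSEp53_2 left out of the fit that of LLPSEp53_1 was 0.0724. In WT against Ctrl SLC38A2 differed by 0.08 (edgeR, adjusted p = 0.818).

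In the other 3 lists both edgeR and DESeq2 called 0 genes in each of the 4 comparisons. The 4 comparisons are given in the order WT against Ctrl, LLPSEp53_1 against p53, LLPSEp53_2 against p53 and LLPSEp53_2 against LLPSEp53_1. The eIF2 list held 12 genes, namely eIF2 kinases, subunits of eIF2 and eIF2B, and PPP1R15B. Its counts at an unadjusted p under 0.05 were 3, 0, 1 and 0. For 27 further genes of ER folding and transport they were 2, 3, 0 and 2. For ER-associated degradation, with 15 genes tested in 2023 and 16 in 2022, they were 1, 0, 0 and 0. The shares of all genes at that p were 18.2%, 13.1%, 12.8% and 7.23%. The median log2 differences of the folding list were 0.05, -0.11, -0.12 and 0.01 in the same order, where those against p53 share the p53 libraries.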

How the data were processed

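The deposited files hold raw counts of reads per gene made by the authors, 1 library per file, with 61552 Ensembl IDs. Trimmomatic 0.39, STAR 2.7.10a and the build GRCh38 are named, per the submitters' processing notes. For the counting tool, annotation and strand setting, the sources used here give nothing. Symbols matched 61399 IDs, and 58352 IDs had positions in GENCODE release 29.

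The test was that of edgeR 4.0.16 in R 4.3.3 (TMM scaling, filterByExpr, quasi-likelihood test, Benjamini-Hochberg adjustment over all genes tested, threshold 0.05). WT and Ctrl were fitted on 6 libraries. The 9 libraries of 2022 shared 1 fit with a batch term, under which p53 replicate 2 sets no difference. CPM was computed after TMM scaling in each year. Ratios of p53 replicate 2 to the mean of p53 replicates 1 and 3 used plain CPM for the genes of both arms. Over all genes tested they used CPM plus 0.1, so the share and median over all genes rest on a slightly different ratio. The limit that a count of 0 allows (3 counts) was 0.156 to 0.222 CPM.

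Full statistics are given for genes called and for the 3 of each arm and comparison with the smallest p, and for called genes of the wider lists. The members and lists were chosen with earlier results of these data known. Libraries of a group differed from each other beyond sampling noise, with chi-square values of 7.46 to 48 per degree of freedom, and of 114 and 128 for the pairs with p53 replicate 2. The steps were tested on simulated data. Alternatives were DESeq2 1.42.0, 2 other scalings, no filter, a replicate block, removal of each library's GC trend (a GC value was had for 98.2% and 98% of genes tested), no batch term, only the groups compared, each library left out, and a 2-fold minimum. The columns in the files of LLPSEp53_1 carry no construct number, so their assignment rests on the sample titles. The level of the overexpressed gene is not reported here.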

Additional observations from a re-analysis of the deposited data

How the results depend on the processing

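The call of EDEM1 (1 gene of the ER arm, WT against Ctrl) became 0 with a 2-fold minimum and ranged from 0 to 2 with 1 library left out. The 0 calls of the ATF4 arm in WT against Ctrl became 3 with DESeq2, 2 without the filter on low counts and 5 with the replicate block (DDIT3, PSAT1, MTHFD2, SLC3A2 and PPP1R15A), and ranged from 0 to 1 with 1 library left out. For LLPSEp53_1 against p53 they became 1 (PPP1R15A) with DESeq2, without the filter and with the GC trend removed, and ranged from 0 to 1. For LLPSEp53_2 against p53 they became 2 (CEBPB and PPP1R15A) without the filter and with only the groups compared, 1 (CEBPB) with the GC trend removed, and ranged from 0 to 1. Calls over all genes moved too. Without the filter they were 937 of 34327 (WT against Ctrl), 562 of 37248 (LLPSEp53_1) and 823 of 37248 (LLPSEp53_2). With the GC trend removed they were 266 and 538 of 17459 for the 2 constructs. With only the groups compared they were 1040 of 16930 for LLPSEp53_2. Without the batch term the log2 difference of PPP1R15A reversed to -1.07 (LLPSEp53_1) and -1.33 (LLPSEp53_2) and that of CEBPB to -0.36 (LLPSEp53_2), since p53 replicate 2 then counts in p53. The cause of the other moves was not tested. Of the values of single genes under alternatives, 402 kept direction and side of the threshold, 19 crossed to a call, 29 lost one and 3 reversed. Whether replicate numbers pair the samples was not settled for WT and Ctrl. There same-numbered libraries correlated at 0.214, 0.438 and 0.0389, while those of different number lay between -0.438 and 0.289 and mostly below 0. Not every library correlated best with its own number: WT replicate 3 did so with Ctrl replicate 1 (0.289). The 0 calls of the ATF4 arm in WT against Ctrl thus rest on a fit that takes the samples as unpaired. In the other comparisons same-numbered libraries correlated from -0.741 to 0.341, with no steady sign. With the replicate block, calls over all genes went from 665 to 1645 (WT against Ctrl), 155 to 40 (LLPSEp53_1 against p53), 337 to 183 (LLPSEp53_2 against p53) and 65 to 33 (between constructs). With it the adjusted p of SLC38A2 was 0.155 (LLPSEp53_1) and 0.157 (LLPSEp53_2) against p53, and that of ATF3 between constructs 0.156, so none of these was called. Leaving out 1 library gave 356 (WT replicate 1) to 1381 (Ctrl replicate 2), 0 (p53 replicate 3) to 568 (LLPSEp53_1 replicate 1), 93 (p53 replicate 3) to 928 (LLPSEp53_1 replicate 3) and 21 (LLPSEp53_2 replicate 3) to 198 (LLPSEp53_1 replicate 3). Depth limited ASNS most.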
